A study of Homo sapiens with 2 samples.

Results

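The insulin-like growth factor (IGF) binding proteins, the 2 IGF receptors and the fibroblast growth factor (FGF) binding proteins were examined as 9 genes named by symbol, among 25702 gene features in the deposited count table. They are IGFBP2, IGFBP3, IGFBP4, IGFBP6, IGFBP7, IGF1R, IGF2R, FGFBP2 and FGFBP3, and each was found by its Entrez number. By the RefSeq table FGFBP2 and IGFBP7 are both on chromosome 4, IGFBP2 is on chromosome 2 beside IGFBP5, and IGFBP3 is on chromosome 7 beside IGFBP1. IGF2R is on chromosome 6, FGFBP3 on 10, IGFBP6 on 12, IGF1R on 15 and IGFBP4 on 17. The genes were chosen with the difference between the libraries already known, so their ratios are given as descriptions, with no test. The cells were REH, named REH-R in the labels, a human line of acute lymphoblastic leukaemia of B-cell precursors. One culture had a tet-regulated PAX5-IRES-GFP construct. PAX5 is a transcription factor needed for B-cell commitment, the IRES is a ribosome entry site, and GFP is a green fluorescent marker. The other culture, the control, had the same construct without PAX5. Doxycycline was given to both at 1 µg/mL over 3 days, GFP-positive cells were sorted, and 1 library of total RNA was sequenced from each culture. The labels do not say whether a culture was 1 clone or a pool of cells.

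IGFs are peptide hormones that signal through the receptor tyrosine kinase IGF1R. Outside the cell they are held by a family of secreted binding proteins, which carry them, limit their access to the receptor and are themselves cut by proteases. FGFs bind strongly to heparan sulphate chains on the cell surface and in the matrix, and FGFBP1, the best studied FGF binding protein, releases them from that store. Levels below are counts per 1000000 after scaling (CPM) where a gene is compared between libraries, and CPM per kilobase of gene length (RPKM) where genes are compared with one another. Each ratio has the PAX5 library on top of the control library, and its exact 95% interval covers counting error only. A gene with 10 or more counts over both libraries is called higher or lower when its whole interval lies at 2-fold or beyond.

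The libraries held 11944765 counts in the PAX5 library, against 10997864 in the control library. PAX5 itself had 8319 counts in the PAX5 library, against 2660 in the control library, 2.91-fold (2.78 to 3.04), so the control cells also held PAX5 transcript. With 1 library per group the differences were not replicated, and p-values are not given. Short genes were lower in general: in 10 equal groups by length, made from features with 100 or more counts, the median log2 ratio was -0.20 in the shortest group and 0.19 in the longest. The B-precursor markers of the line, such as DNTT (19209 counts in the PAX5 library, against 20376 in the control library) and RAG1 (32494 and 32110 in the same order), were abundant in both.

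FGFBP2 and IGFBP7 were called lower in the PAX5 library, and no gene of the 9 was called higher. The other 7 were IGFBP4, IGF1R, IGF2R and IGFBP2, with intervals above 0, IGFBP6, with an interval below 0, FGFBP3, whose interval included 0, and IGFBP3, which had no counts. Of all 13532 features with at least 10 counts, 0.0517% were called lower and 1.34% higher, while 18.7% had an interval above 0 and 16.8% an interval below 0. The genes were chosen on this contrast, so nothing is read from their share. The 8 detected genes each had at least 15 counts in both libraries, and their median log2 ratio was -0.38 beside -0.01 over all features tested.

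The window around the annotated start of 2 of the genes is shown, FGFBP2 because it had the lowest log2 ratio of the 9 and IGFBP4 because it had the highest. Both are RefSeq sequences of GRCh38.p14, from 250 bases before to 50 bases after the start, 5′ to 3′ on the strand of the gene, which is the minus strand for FGFBP2 and the plus strand for IGFBP4. The capitals mark GCGTGAC, the core letters of the published PAX5 motif, in FGFBP2 and TATAAA, the TATA box, in IGFBP4.

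FGFBP2, chr4:15963126-15963425: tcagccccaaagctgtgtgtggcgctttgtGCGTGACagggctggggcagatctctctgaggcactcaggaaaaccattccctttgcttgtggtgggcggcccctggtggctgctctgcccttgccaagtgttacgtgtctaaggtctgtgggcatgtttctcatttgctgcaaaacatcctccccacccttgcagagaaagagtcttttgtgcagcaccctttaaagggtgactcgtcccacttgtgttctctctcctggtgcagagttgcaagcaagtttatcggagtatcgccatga

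IGFBP4, chr17:40443200-40443499: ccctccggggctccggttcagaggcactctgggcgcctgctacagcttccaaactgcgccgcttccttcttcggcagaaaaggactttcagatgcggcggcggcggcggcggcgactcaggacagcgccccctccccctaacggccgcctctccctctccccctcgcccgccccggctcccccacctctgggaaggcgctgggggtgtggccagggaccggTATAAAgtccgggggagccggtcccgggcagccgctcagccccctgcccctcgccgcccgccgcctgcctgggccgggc

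Promoter windows were matched for 8 of the 9 genes, all but IGFBP7, with 10 windows in all because IGFBP2 has 3. In all 5 motifs were searched, and the 2 in capitals were chosen for display after their matches were seen. GCGTGAC, searched on both strands as GCGTGAC and GTCACGC, stood in the FGFBP2 window alone among the 10, 220 bases before the start. Of all 35116 promoter windows of the same length, 2.52% held it. TATAAA, searched with its reverse complement TTTATA, stood in the IGFBP4 window alone, 29 bases before the start, and 11.5% of all windows held it. The other 3 were common: GGGCGG, the GC box (reverse complement CCGCCC), stood in 8 of the 10 windows and in 45% of all windows, CANNTG, the E box (its own reverse complement), in 8 and 68.7%, and CG in 10 and 96%. GGGCGG always contains CG, as does GCGTGAC. A match describes letters and is no evidence of binding. By base composition the IGF receptor windows were the richest in G and C, at 79.7% for IGF1R and 78.7% for IGF2R. The window of FGFBP3 was the poorest at 45.7%, FGFBP2 followed at 54.0%, and the median of all windows was 58.7%.

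Among the IGF binding proteins, IGFBP2 was by far the most abundant. It is a secreted carrier of both IGFs. It had 7183 counts (604 CPM) in the PAX5 library, against 6090 counts (551 CPM) in the control library, a log2 ratio of 0.13 (0.08 to 0.18). Per gene length it stood at 422 RPKM in the PAX5 library, against 385 RPKM in the control library, rank 99 and rank 120 among the 13532 features tested. IGFBP2 is a short gene, and features of similar length had a median log2 ratio of -0.12. After centring on that median its log2 ratio was 0.26 (0.21 to 0.30).

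IGFBP7, which binds IGFs with low affinity and also insulin, went the other way. It had 168 counts (14.1 CPM) in the PAX5 library, against 402 counts (36.4 CPM) in the control library. It was 2.57-fold lower (2.15 to 3.10), a log2 ratio of -1.36 (-1.63 to -1.10). In level per length it stood at rank 5751 in the PAX5 library and rank 2668 in the control library. IGFBP7 lies in the shortest group of genes by length. When ratios were centred on that group, it was 2.24-fold lower, with a log2 ratio of -1.16 (-1.43 to -0.90), and no longer met the rule. In the GENCODE 29 annotation (GRCh38), 270 of its 1930 exonic bases are shared with POLR2B, an RNA polymerase II subunit, and 94 with IGFBP7-AS1, both on the opposite strand. The counts were made on hg19 with a gene length of 1110 bases for IGFBP7, and whether that length includes the shared bases was not examined. The strand setting of the counting is not given in the sources used here, so any reads counted there cannot be told apart. POLR2B had 3122 counts in the PAX5 library, against 2620 in the control library, a log2 ratio of 0.15 (0.07 to 0.22), and IGFBP7-AS1 had 1 and 0 counts.

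IGFBP4 had the highest ratio of the IGF binding proteins with at least 10 counts over both libraries. It is a binding protein that restrains IGF action until the protease PAPP-A cuts it. It had 344 counts (28.9 CPM) in the PAX5 library, against 146 counts (13.2 CPM) in the control library, 2.19-fold (1.80 to 2.68), which is a log2 ratio of 1.13 (0.85 to 1.42). The point ratio was above 2-fold and the lower bound was not, so it was not called. Of all features tested, 4.04% had a point ratio at or beyond 2-fold on this side. Centring on length gave a log2 ratio of 1.19 (0.91 to 1.48), still short of the rule.

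IGFBP6, which prefers IGF2 over IGF1, was scarce. It had 15 counts (1.26 CPM) in the PAX5 library, against 28 counts (2.53 CPM) in the control library, a log2 ratio of -1.01 (-2.02 to -0.05). The interval ended close to 0, and after centring on length it ran from -1.82 to 0.15. IGFBP3, the main carrier of IGFs in serum, had 0 counts in both libraries. A floor of 3 counts corresponds to 0.252 CPM in the PAX5 library, against 0.272 CPM in the control library, and the exact 95% limit of a count of 0 to 0.31 and 0.334 CPM in the same order. The remaining family members outside the 9 genes had few or no counts: IGFBP1 had 0 counts in both libraries, and IGFBP5 had 4 in the PAX5 library, against 1 in the control library.

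**Figure D1:**
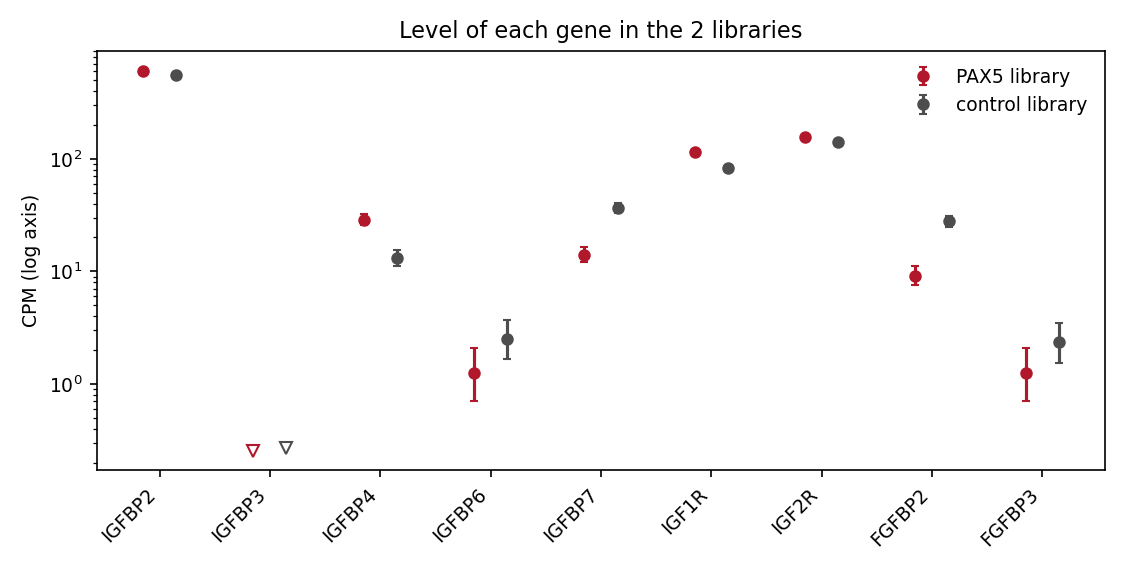
Level of the 9 genes in CPM (log axis), with the PAX5 library left of the control library for each gene; points are values of single libraries, bars are exact 95% Poisson intervals of the counts, and open triangles mark the floor of 3 counts for IGFBP3. FGFBP2 and IGFBP7 lie lower in the PAX5 library (9.17 against 28.0 CPM and 14.1 against 36.4 CPM), and IGFBP4 lies higher (28.9 against 13.2 CPM).

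Summed over IGFBP1 to IGFBP7, the family was at a similar level in the libraries, while the order of IGFBP4 and IGFBP7 within it differed. The sum was 7714 counts in the PAX5 library, against 6667 in the control library, 1.08-fold (1.04 to 1.11). IGFBP2 made up 93.1% of these counts in the PAX5 library (Wilson 95% interval 92.5 to 93.7) and 91.3% in the control library (90.6 to 92.0). IGFBP7 made up 2.18% (1.88 to 2.53) in the PAX5 library, against 6.03% (5.48 to 6.63) in the control library. IGFBP4 made up 4.46% (4.02 to 4.94) in the PAX5 library, against 2.19% (1.87 to 2.57) in the control library. IGFBP4 thus held more counts than IGFBP7 in the PAX5 library, and IGFBP7 more than IGFBP4 in the control library. Per gene length, IGFBP4 and IGFBP7 were level within counting error in the PAX5 library, at 12.9 and 12.7 RPKM. In the control library IGFBP7 was well above IGFBP4, at 32.8 and 5.91 RPKM.

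Both IGF receptors had intervals above 0 and small ratios. IGF1R had 1365 counts (115 CPM) in the PAX5 library, against 919 counts (83.2 CPM) in the control library, 1.38-fold (1.27 to 1.5), which is a log2 ratio of 0.46 (0.34 to 0.59). IGF2R is the cation-independent mannose 6-phosphate receptor, which removes IGF2 from the cell surface and sorts lysosomal enzymes. It had 1855 counts (156 CPM) in the PAX5 library, against 1564 counts (142 CPM) in the control library, a log2 ratio of 0.14 (0.04 to 0.24). Both genes are in the longest group by length, whose median log2 ratio was 0.19. Centred on it, IGF1R had 0.27 (0.15 to 0.39) and IGF2R had -0.05 (-0.15 to 0.04), so the sign of IGF2R turned and its interval included 0. Per length, IGF2R stood above IGF1R in both libraries, at 17.2 against 10.2 RPKM in the PAX5 library and 15.6 against 7.40 RPKM in the control library.

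FGFBP2 was the lowest of the 9 genes in ratio. It encodes a secreted protein best known from cytotoxic lymphocytes. It had 109 counts (9.17 CPM) in the PAX5 library, against 309 counts (28.0 CPM) in the control library. It was 3.05-fold lower (2.44 to 3.83), a log2 ratio of -1.61 (-1.94 to -1.29). The gene is in the shortest group by length, and centring on that group left it 2.65-fold lower, with a log2 ratio of -1.41 (-1.74 to -1.09) that still met the rule. In GENCODE 29, 166 of its 1250 exonic bases are shared with its neighbour PROM1 on the same strand. The counts had a gene length of 1171 bases for FGFBP2, and whether that length includes the shared bases was not examined. Any reads counted in those bases cannot be assigned to a single gene. PROM1 had 162 counts in the PAX5 library, against 166 in the control library, a log2 ratio of -0.14 (-0.46 to 0.18). FGFBP1, the neighbour on the other side, had 0 counts in both libraries.

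FGFBP3, which also binds FGFs, was at the low end of detection. It had 15 counts (1.26 CPM) in the PAX5 library, against 26 counts (2.35 CPM) in the control library, a log2 ratio of -0.90 (-1.92 to 0.07). A difference was not detectable at this depth, because the interval ran from 3.79-fold lower to 1.05-fold higher. In GENCODE 29, 270 of its 2545 exonic bases are shared with AL359198.1 on the opposite strand. FGFBP2 held most counts of its family, with 87.9% (81.0 to 92.5) in the PAX5 library, against 92.2% (88.9 to 94.6) in the control library. The family sum was 124 counts in the PAX5 library, against 335 in the control library, a log2 ratio of -1.54 (-1.85 to -1.24).

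None of the counted genes next to the 9 on the chromosome was called. Beside FGFBP3, TNKS2 had 2161 counts in the PAX5 library, against 1614 in the control library, a log2 ratio of 0.32 (0.22 to 0.41), and BTAF1 had 0.19 (0.06 to 0.32). Beside IGFBP6, SPRYD3 had 184 and 183 counts in the same order and SOAT2 had none. Both sides of IGF1R and IGF2R, where counted, held at most 1 count, and TNS4 beside IGFBP4 had 2 and 0.

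**Figure D2:**
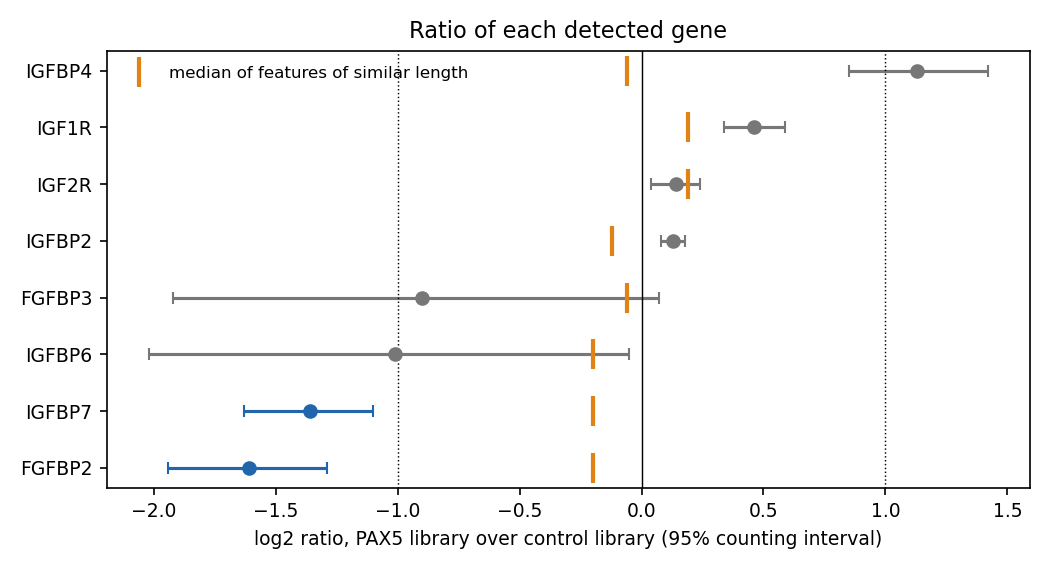
Log2 ratio of the PAX5 library over the control library for the 8 genes with counts, from highest to lowest; bars are exact 95% counting intervals, blue marks genes past the rule, dotted lines mark 2-fold and orange ticks mark the median of features of similar length. IGFBP4 stands at 1.13 and FGFBP2 and IGFBP7 at -1.61 and -1.36, and the orange tick lies inside the intervals of IGF2R, IGFBP6 and FGFBP3.

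FGFBP2 and IGFBP7 were alike in ratio and in abundance, and their intervals overlapped. Among 4077 features with a symbol and a summed count within 2-fold of that of IGFBP7, FGFBP2 had the closest log2 ratio, followed by DDIT4L (-1.02) and ACSL5 (-0.99). Among 3606 such features for FGFBP2, IGFBP7 was the closest, followed by CD48 (-1.07) and ACSL5 (-0.99). With 2 libraries this likeness is that of a single ratio. Both genes were chosen with their ratios known, so nothing is read from the match. Of the 7 features called lower in the whole table, FGFBP2 had the fourth and IGFBP7 the sixth bound from the lowest. The other 5 had summed counts between 17 and 166, beside 418 for FGFBP2 and 570 for IGFBP7.

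**Figure D3:**
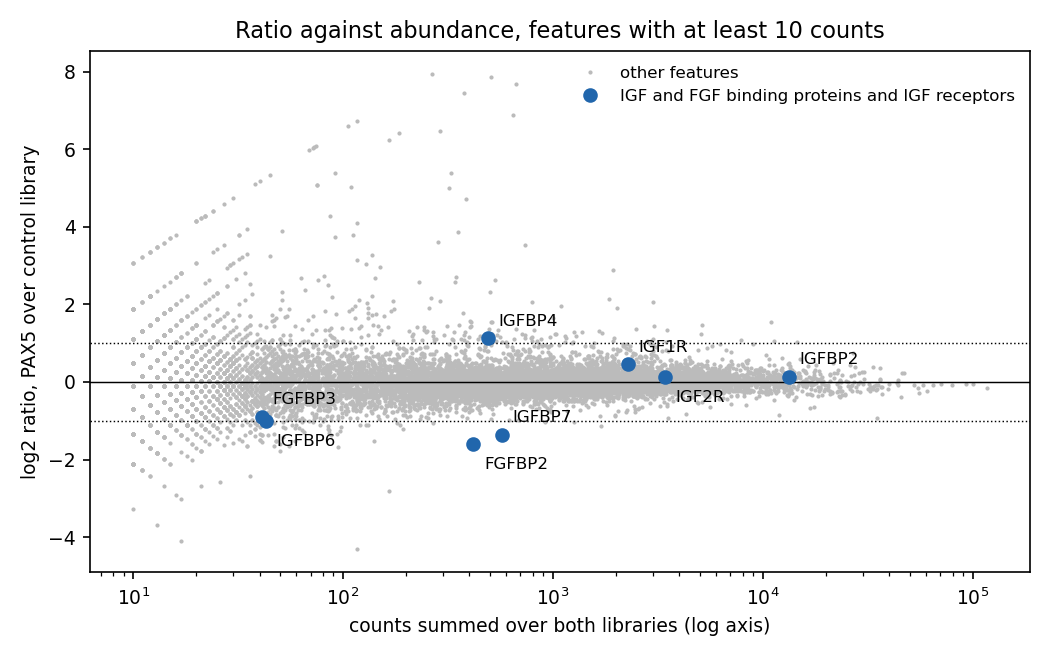
Log2 ratio of the PAX5 library over the control library against counts summed over both libraries (log axis), for features with at least 10 counts and a count in each library; blue points are the genes examined and dotted lines mark 2-fold. FGFBP2 (418 counts) and IGFBP7 (570 counts) lie below most features of similar abundance.

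Both genes are also expressed by other cells, so markers of those cells are given beside them. Of 7 markers of natural killer and cytotoxic T cells, which express FGFBP2, GNLY, GZMB, KLRD1 and CD3D were at 0 in both libraries. PRF1 had 0 counts in the PAX5 library, against 3 in the control library, and CD3E 0 and 1. NKG7 had 27 counts in the PAX5 library, against 46 in the control library, a log2 ratio of -0.87 (-1.62 to -0.16), or -0.67 (-1.42 to 0.04) after centring on length. The 7 summed to 2.27 CPM in the PAX5 library, against 4.53 CPM in the control library. Stromal and endothelial cells express IGFBP7. Of 6 stromal markers COL3A1 and LUM were at 0 in both libraries, and COL1A2 and DCN had at most 2 counts. The sum was 49.6 CPM in the PAX5 library, against 59.5 CPM in the control library, nearly all from PDGFRB and COL1A1. PDGFRB had 473 counts in the PAX5 library, against 563 in the control library, a log2 ratio of -0.36 (-0.54 to -0.18). After centring on length it had -0.46 (-0.64 to -0.28). COL1A1 had 115 and 93 counts in the same order, a log2 ratio of 0.20 (-0.21 to 0.61). Of 5 endothelial markers CDH5 and TEK were at 0 in both libraries, and the sum was 0.673 CPM in the PAX5 library, against 0.724 CPM in the control library. The 4 monocyte markers summed to 1.35 CPM in the PAX5 library, against 4.07 CPM in the control library, most of it CSF1R with 14 and 41 counts, and FCGR3A was at 0 in both. The part of NKG7, PDGFRB and CSF1R in the results for FGFBP2 and IGFBP7 was not tested. In bulk RNA, fewer cells with a transcript and less transcript per cell cannot be told apart.

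The ligands of the IGF system were not detected. IGF1, IGF2 and INS had 0 counts in both libraries. INSR, the insulin receptor and close relative of IGF1R, was abundant, with 7377 counts in the PAX5 library, against 6035 in the control library, a log2 ratio of 0.18 (0.13 to 0.23) that became -0.01 (-0.06 to 0.04) after centring on length. It stood at 68.5 RPKM in the PAX5 library, against 60.3 RPKM in the control library, well above IGF1R in both. IGF1R made up 15.6% (14.9 to 16.4) of the counts of IGF1R, INSR and INSRR in the PAX5 library, against 13.2% (12.4 to 14) in the control library. IGFALS, the acid-labile subunit that joins IGFBP3 in serum, and IGFBPL1 had 0 counts in both libraries.

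Downstream of the receptors, 0 of 29 measured signalling genes were called, beside 1.34% of all features tested called higher and 0.0517% lower. The median log2 ratio of the 29 genes was 0.09. Intervals lay above 0 for 14 and below 0 for 4, beside 18.7% above and 16.8% below over all features tested. Of the 29 genes 19 are in the 2 longest groups by length. After centring on length 5 of the 29 intervals lay above 0 and 4 below, with a median log2 ratio of -0.02. The shares of all features with such intervals after centring were not computed. IRS2, a docking protein of the IGF and insulin receptors, had 1926 counts in the PAX5 library, against 1098 in the control library, a log2 ratio of 0.70 (0.60 to 0.81). FOXO1, a transcription factor that AKT keeps out of the nucleus, had 5043 and 3347 counts in the same order and a log2 ratio of 0.49 (0.42 to 0.55). RPTOR, a scaffold protein of the mTOR complex, had a log2 ratio of 0.50 (0.36 to 0.64). After centring on length, IRS2 had 0.51 (0.40 to 0.62), FOXO1 0.38 (0.32 to 0.45) and RPTOR 0.30 (0.17 to 0.44). AKT1, the kinase itself, had 2152 counts in the PAX5 library, against 2344 in the control library, a log2 ratio of -0.23 (-0.31 to -0.14). PIK3CD and PIK3R1, subunits of phosphoinositide 3-kinase, had 0.12 and 0.07, and 0.01 and -0.13 after centring on length. IRS4 and GRB14 had 0 counts in both libraries.

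Proteins that cut or resemble IGF binding proteins included 1 called gene. Of 12 genes with an IGFBP-type domain 4 had at least 10 counts, and HTRA3, a secreted serine protease with such a domain, was called higher. It had 331 counts in the PAX5 library, against 21 in the control library, 14.6-fold (9.42 to 24.0). CCN2, a matricellular protein, had a log2 ratio of 0.48 (0.10 to 0.87), KAZALD1 of -0.31 (-0.53 to -0.09), and CRIM1 had 369 counts in the PAX5 library, against 344 in the control library. HTRA1, CCN1, CCN3, CCN4, CCN5, ESM1 and HTRA4 had 0 counts in both libraries, and CCN6 had 1 and 0. Of the 9 IGFBP proteases and inhibitors 3 had at least 10 counts, and none of these was called. Of all features tested 1.34% were called higher and 0.0517% lower. PAPPA had 2 counts in the PAX5 library, against 1 in the control library, and PAPPA2, ADAM12 and ADAM28 had 0 in both. The lysosomal proteases CTSD and CTSB had log2 ratios of -0.10 (-0.23 to 0.03) and 0.04 (-0.06 to 0.14). STC2, an inhibitor of PAPP-A, had 3 and 8 counts in the same order.

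Genes that share the work of IGF2R in lysosomal sorting were measured in full, and 0 of 12 were called (median log2 ratio -0.07). Of all features tested 1.34% were called higher and 0.0517% lower. AP1B1, a subunit of the clathrin adaptor AP-1, had 3615 counts in the PAX5 library, against 1824 in the control library, 1.84-fold (1.74 to 1.95). GNPTAB and GNPTG, subunits of the enzyme that builds the mannose 6-phosphate tag, had log2 ratios of -0.29 (-0.41 to -0.16) and -0.45 (-0.77 to -0.14), and after centring on length the interval of GNPTG included 0 (-0.57 to 0.06). The retromer subunit VPS35 (-0.03) and the sorting receptor SORT1 (-0.06) had intervals that included 0, while SORT1 had -0.25 (-0.36 to -0.15) after centring on length. IGF2BP1, IGF2BP2 and IGF2BP3 bind IGF2 messenger RNA rather than the hormone. IGF2BP1 had 4972 counts in the PAX5 library, against 4279 in the control library, a log2 ratio of 0.11 (0.05 to 0.17) that turned to -0.08 (-0.14 to -0.02) after centring on length, while IGF2 itself had no counts.

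On the FGF side, FGF18 was the 1 called gene of 22 ligands, of which 5 had at least 10 counts. It had 29 counts in the PAX5 library, against 3 in the control library, 8.98-fold with a wide interval (2.78 to 46.1). FGF11, an intracellular member of the family, was the most counted, with 420 and 365 counts in the same order and a log2 ratio of 0.10 (-0.11 to 0.30). FGF5 had 9 and 3 counts and FGF6 had 15 and 18. Of the other ligands 11 had 0 counts in both libraries, and FGF2 had 2 counts in each. Among the receptors and adaptors 0 of 10 measured genes were called, beside 1.34% of all features tested called higher and 0.0517% lower. FGFR1 was the most abundant receptor at 30.2 RPKM in the PAX5 library, against 23.4 RPKM in the control library, 1.29-fold (1.21 to 1.38), and the adaptor GAB1 was 1.38-fold (1.29 to 1.47). The log2 ratio of FGFR1 was 0.37, and 0.26 (0.17 to 0.36) after centring on length. That of GAB1 was 0.46, and 0.27 (0.17 to 0.36) after centring.

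Heparan sulphate proteoglycans, which hold FGFs at the cell surface, had 2 of 9 measured genes called higher and none lower, where 1.34% of all features tested were called higher. The lists were chosen with earlier results known, so nothing is read from such shares. SDC2, encoding syndecan-2, had 319 counts in the PAX5 library, against 7 in the control library, 42.3-fold (20.3 to 106). SDC3, encoding syndecan-3, had 73 counts in the PAX5 library, against 20 in the control library, 3.39-fold (2.05 to 5.87), and narrowly missed the rule after centring on length. SDC1 had 194 and 73 counts in the same order, 2.47-fold (1.88 to 3.28), and was not called. SDC4, GPC3, GPC5 and GPC6 had 0 counts in both libraries. In contrast AGRN, encoding agrin, had a log2 ratio of -0.32 (-0.49 to -0.15), GPC4 had 0.30 (0.12 to 0.48), and HSPG2, encoding perlecan, had 0.07 (-0.08 to 0.21), or -0.13 after centring on length. The list's median was 0.09. Over the 10 lists together 4 of 76 measured genes were called higher and 0 lower, beside 1.34% and 0.0517% of all features tested.

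**Figure D4:**
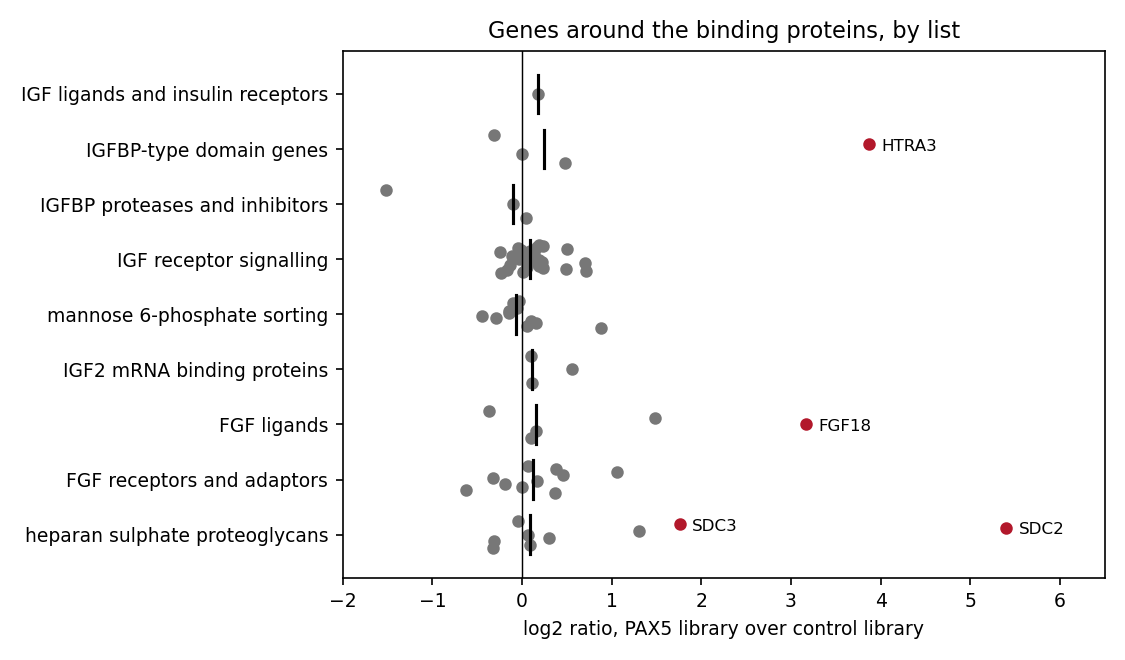
Log2 ratio of the PAX5 library over the control library for list genes with at least 10 counts; each point is 1 gene, red points passed the rule and black bars are list medians. SDC2, HTRA3, FGF18 and SDC3 stand at 5.40, 3.87, 3.17 and 1.76, and the list medians lie between -0.10 and 0.24.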

How the data were processed

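Total RNA of 2 libraries from GFP-sorted REH cells was sequenced, 1 with inducible PAX5 and 1 with the control cassette. The values deposited are raw read counts for each Entrez gene, beside a gene length. Per the submitters' processing notes, the authors used featureCounts and the genome build hg19 (GRCh37). The aligner and the strand setting were not given in the sources used here. The table of both libraries and the single files held the same 51404 values. Its columns were matched to the libraries by library number. Symbols came from a RefSeq table of GRCh38.p14, by Entrez number, for 23696 of 25702 features.

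TMM scaling (edgeR 4.0.16, R 4.3.3) on features with at least 10 counts gave a factor of 0.9954 to the PAX5 library, against 1.0046 to the control library. Intervals are exact Clopper-Pearson 95% intervals given the summed count (scipy 1.17.1). They cover counting error only, since PCR can copy 1 molecule into several reads and cultures were not repeated. No gene could be tested by edgeR or DESeq2, because 1 library per group leaves no residual degrees of freedom. The rule was tested on simulated counts that held counting error only. That test therefore says nothing about differences between cultures. Named genes are the 9 genes, list genes past the rule, and of each list those with the most counts or the bounds farthest from 0 (RPTOR, SDC1, PAPPA, STC2 and CCN6 were named after their values were seen). The genes and lists were chosen with earlier results of these data known. Alternatives were scaling by total counts, DESeq2 1.42.0 size factors or upper-quartile factors, the single files, centring on 10 length groups, other count minimums and folds, and an assumed coefficient of variation.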

Additional observations from a re-analysis of the deposited data

How the results depend on the processing

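Of the 9 genes, 2 were called lower and 0 higher. Scaling by total counts, DESeq2 size factors or upper-quartile factors, the single files, and a count minimum of 50 or none gave the same 2 genes, FGFBP2 and IGFBP7, and 0 higher. Centring on gene length left 1 lower gene, FGFBP2, with IGFBP7 at a log2 ratio of -1.16. It also moved IGFBP2 to 0.26 and IGF1R to 0.27, and turned IGF2R to -0.05. These shifts are the medians of the length groups that were subtracted. A bound at 1.5-fold or a point ratio at 2-fold added 1 higher gene, IGFBP4. The point ratio also gave 3 lower genes, with IGFBP6 added, and a bound at 4-fold left 0 lower genes. With an assumed coefficient of variation between cultures of 0.1 FGFBP2 was the 1 gene called lower, and with 0.2 the number was 0. Over the 10 other lists 4 genes were called higher. That number was 7 with a bound at 1.5-fold, 2 with a bound at 4-fold (HTRA3 and SDC2) and 7 with a point ratio, which also gave 1 lower gene, STC2. It was 3 with a count minimum of 50, without FGF18, and 3 without SDC3 both after centring on length, where SDC3 had 1.70, and with an assumed coefficient of variation of 0.1 or 0.2. Depth limits IGFBP6 and FGFBP3 most, with 43 and 41 counts over both libraries. No paired analysis was possible because each group has 1 library.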
